A study of Mus musculus with 35 samples.

Results

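The late cornified envelope and filaggrin-type genes are 31 of the 36106 genes in the count table of a study of radiation injury in mouse skin. They were taken by symbol. Every gene whose symbol starts with Lce and a digit was included, which gave 21 genes (14 Lce1, 6 Lce3 and Lce6a), together with 10 partners, Flg, Flg2, Hrnr, Rptn, Crnn, Ivl, Tgm1, Tgm3, Cdsn and Casp14. The rule uses no measured value. RNA was sequenced in bulk from 35 skin samples of female mice of the inbred strain C57BL/6J, aged 10 weeks, 19 mice in all. Sham skin (3 samples) came from mice that had no radiation. Radiated skin (16 samples, 4 at each of weeks 1, 2, 3 and 4) was the left flank, which had been given 25 Gy at 3.6 Gy per min over 420 s, and was shaved after that. Control skin (16 samples, 4 at each week) carries the same week and replicate numbers as the radiated skin, and the labels do not say from which part of the body it was taken. The labels name no further treatment and no genetic change in any group, and they do not say in words whether same-numbered radiated and control samples are from 1 mouse. With 35 samples from 19 mice they were taken to be. Replicates are numbered samples of a group, and p-values measure the spread between those samples.

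Keratinocytes that leave the basal layer of the epidermis end as flat dead corneocytes, whose inner surface is a shell of crosslinked protein called the cornified envelope. Transglutaminases join involucrin, loricrin, small proline-rich proteins and the late cornified envelope (LCE) proteins into this shell, while filaggrin packs the keratin filaments and is later broken down to amino acids that hold water. Filaggrin, filaggrin-2, hornerin, repetin and cornulin are S100 fused-type proteins, made in the uppermost living layers, and their genes lie beside the LCE genes in the epidermal differentiation complex. In human skin, genes of the LCE3 group are known to be switched on after barrier injury, whereas LCE1 genes belong to resting epidermis.

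Of the 31 members, 27 lie within 828.541 kb of mouse chromosome 3, at chr3:92570902-93399442 on GRCm38 (GENCODE M21). The 21 Lce genes take up 398.98 kb of it, from Lce6a at chr3:92620081-92621660 to Lce1m at chr3:93017810-93019060, both on the minus strand. Ivl is at chr3:92570902-92573735 on the minus strand, Flg2 at chr3:93197278-93221391, Flg at chr3:93273523-93293686 and Rptn at chr3:93393699-93399442 on the plus strand. From one end the order is Ivl, Lce6a, 13 of the Lce1 genes, the 6 Lce3 genes, Lce1m, Crnn, Flg2, Flg, Hrnr and Rptn, so that Lce1m stands apart from the other Lce1 genes. Tgm1, Tgm3, Casp14 and Cdsn lie on chromosomes 14, 2, 10 and 17. The promoters of 5 Lce genes are shown because the subfamilies differed in the results below, Lce3c and Lce3e having risen, Lce1b and Lce1m having fallen and Lce1g having risen. Each line gives the 250 bases that precede the RefSeq start of the gene (GRCm38.p6), 5′ to 3′ on the strand of the gene. The windows are chr3:92944236-92944485 for Lce3c and chr3:92966811-92967060 for Lce3e on the plus strand, and chr3:92656927-92657176 for Lce1b, chr3:92752339-92752588 for Lce1g and chr3:93019062-93019311 for Lce1m on the minus strand. Capitals mark ATAAAA, a stretch common to all Lce3 windows, and ACTGTCTCAC, a stretch found in most Lce1 windows, both of which were picked from these windows.
Lce3c: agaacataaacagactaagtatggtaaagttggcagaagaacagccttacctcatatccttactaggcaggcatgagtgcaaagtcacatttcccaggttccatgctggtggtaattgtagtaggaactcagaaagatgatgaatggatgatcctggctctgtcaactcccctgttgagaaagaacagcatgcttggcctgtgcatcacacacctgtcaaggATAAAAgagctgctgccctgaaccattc
Lce3e: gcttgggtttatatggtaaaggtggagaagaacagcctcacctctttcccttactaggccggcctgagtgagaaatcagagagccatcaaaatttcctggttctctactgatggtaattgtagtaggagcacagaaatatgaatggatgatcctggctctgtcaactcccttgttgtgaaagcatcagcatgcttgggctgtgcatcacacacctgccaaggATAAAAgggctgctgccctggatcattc
Lce1b: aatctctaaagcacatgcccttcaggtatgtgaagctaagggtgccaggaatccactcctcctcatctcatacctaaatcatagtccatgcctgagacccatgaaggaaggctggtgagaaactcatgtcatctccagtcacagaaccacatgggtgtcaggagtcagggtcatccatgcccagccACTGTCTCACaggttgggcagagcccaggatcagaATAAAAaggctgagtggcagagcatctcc
Lce1g: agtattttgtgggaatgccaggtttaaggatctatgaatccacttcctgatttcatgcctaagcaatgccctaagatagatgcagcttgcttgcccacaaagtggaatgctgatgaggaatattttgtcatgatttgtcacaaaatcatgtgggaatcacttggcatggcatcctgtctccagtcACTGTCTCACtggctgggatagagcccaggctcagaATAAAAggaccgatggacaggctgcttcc
Lce1m: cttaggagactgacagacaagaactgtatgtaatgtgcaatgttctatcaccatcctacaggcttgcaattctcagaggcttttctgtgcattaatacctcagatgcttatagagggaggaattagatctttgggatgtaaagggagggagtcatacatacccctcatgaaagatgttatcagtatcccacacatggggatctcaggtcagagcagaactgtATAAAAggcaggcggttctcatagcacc

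A promoter window was found for 30 members, all but Lce1f. ATAAAA on the gene's strand stood in 6 of 6 Lce3 and 12 of 13 Lce1 windows (not in Lce1a1), against 10.2% of 32851 windows of that length over all genes, and in the 5 printed windows it lies 28 or 29 bases before the start. ACTGTCTCAC was present in 9 of 13 Lce1 windows, in 0 of 6 Lce3 windows and in 0.0974% of all windows. Lce1c, Lce1k, Lce1l and Lce1m lack it, and Lce1b and Lce1g, which changed in opposite directions, both hold it. Of 2 motifs searched on both strands, the AP-1 motif TGACTCA or TGAGTCA was found in 0 Lce windows of either subfamily, in 1 of the 11 other members with a window (Ivl, 116 bases before the start) and in 4.46% of all windows. The KLF-type motif CCACCC was found in 1 Lce1 window, 0 Lce3 windows, 7 of 11 other members and 28.1% of all windows. These are matches of letters within a window and not measured binding sites.

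The libraries held between 17362725 and 28487795 counts each, so 3 counts, taken as the floor of detection in a library, were worth 0.114 to 0.175 CPM (the level of a gene as counts per 1e6 counts of its library). The members took between 0.394% and 0.894% of the counts of a control library. In radiated skin that share ran from 0.582% to 1.89% in week 1 and from 0.0288% to 1.59% in week 3. The labelled tissue was checked against markers. The basal keratinocyte markers Krt5, Krt14, Krt15, Col17a1, Itga6 and Itgb4 summed to between 6295 and 17498 CPM in every library, and Krt4, Krt13 and Krt36, markers of tongue and esophagus, to at most 23.1 CPM. Flg, Ivl, Rptn and Lor, the markers of cornifying keratinocytes, summed to between 788 and 1516 CPM in control skin and to 26.9, 553, 4017 and 10964 CPM in radiated replicates 1 to 4 of week 3, replicate 1 being the lowest. Of these 4 markers, 3 are members. In bulk RNA, fewer cells of a type and less RNA per cell cannot be told apart.

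In control skin, levels per length ranked Flg2 first. Over the 16 control libraries its median was 187 CPM per kb of longest transcript (lowest 120.1, highest 289.5), and its lowest library lay above the highest library of every other member. Lce1b (median 87.3 CPM per kb), Cdsn (73.3) and Flg (67.8) came next, with ranges that overlapped one another. The Lce1 genes covered a wide range, from Lce1b down to Lce1g at a median of 0.808 CPM per kb. Rptn had a median of 1.09 CPM per kb, and Crnn 0.0257. The 6 Lce3 genes and Crnn were the lowest 7 of the 31 members. Of the Lce3 genes, 70 of their 96 values in control libraries were 0 counts and 81 were under 3 counts, as were 15 of 18 values in sham libraries, whereas 74 of 96 values in radiated libraries had 3 counts or more.

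**Figure D1:**
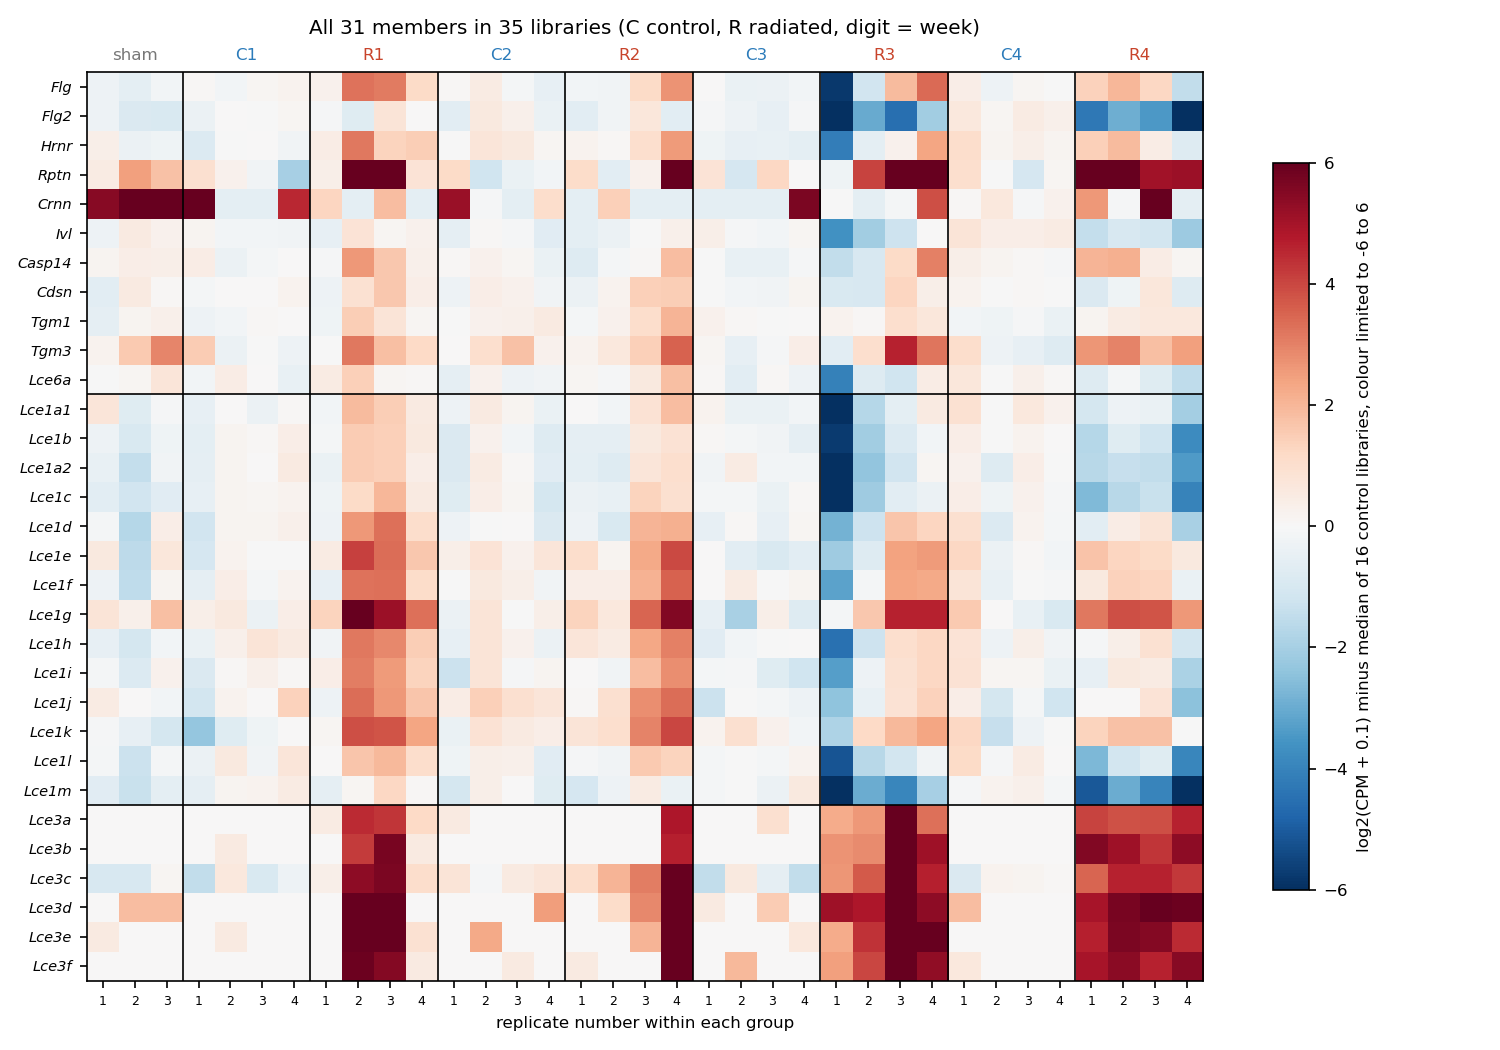
Heat map of all 31 members (rows) in the 35 libraries (columns, grouped as sham, control C1 to C4 and radiated R1 to R4, numbered by replicate); colour is log2(CPM + 0.1) minus the median of the 16 control libraries, limited to between -6 and 6. Lce3 genes are raised in radiated replicates 2 and 3 of week 1, replicate 4 of week 2 and in all 4 radiated libraries of weeks 3 and 4, and Flg2 and Lce1m are low in all radiated libraries of weeks 3 and 4.

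One week after radiation the members were high in some radiated libraries and at control level in others. Flg, which encodes profilaggrin, measured 1166, 9464, 8465 and 2162 CPM in radiated replicates 1 to 4 and 1038, 867, 1051 and 1147 CPM in control replicates. Replicates 2 and 3 were far above the control range and replicate 1 was just over it. Rptn, which encodes repetin, an envelope protein precursor, measured 5.76, 942, 292 and 8.17 CPM in radiated skin and 8.89, 5.46, 3.91 and 1.05 CPM in control skin. The same replicates, 2 and 3, were the high ones and replicates 1 and 4 overlapped the controls. Lce3c, the Lce3 gene with the most counts, showed 0.256, 11.7, 14.2 and 0.481 CPM in radiated against 0, 0.333, 0.0477 and 0.126 CPM in control libraries. Taking Rptn and the 6 Lce3 genes together, the highest radiated library of week 1 was replicate 2 for 3 genes and replicate 3 for 4.

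With this spread, 0 of 24 members tested in week 1 had an adjusted p under 0.05 in edgeR's quasi-likelihood test, as had 0% of 17578 genes. At an unadjusted p under 0.05, 20 members were higher and 0 lower, against 7.05% and 7.04% of all genes, and the DESeq2 Wald test called 8 members, all higher, where it called 2.41% of all genes (0.853% higher). Groups did not overlap for 6 members, all higher in radiated skin (Flg, Hrnr, Lce1e, Lce1g, Lce1i and Lce1k), against 3.49% of all genes, and 0 were lower throughout, against 4.89%. The median log2 fold change of the members tested was 1.50, and over all genes it was 0.05. Radiated replicate 1 decided the count, which was 0 without any other single library. Of the radiated libraries it was the lowest in the members Flg, Ivl and Rptn themselves, so the count without that library is a description. Without it 12 of 26 members tested were called, all higher, against 1.3% of 17845 genes (0.572% higher), with log2 fold changes of 2.71 for Flg (adjusted p 0.0164) and 6.42 for Rptn (adjusted p 0.0326), where the full data gave 2.38 ± 0.56 (SE, adjusted p 0.19) and 6.03 (adjusted p 0.19). Without radiated replicate 2 the value of Rptn was 4.41 (adjusted p 0.319).

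Week 2 repeated the pattern with a different library. Rptn measured 9.69, 2.86, 5.51 and 668 CPM in radiated skin, and 10.1, 1.89, 3.36 and 4.07 CPM in control skin. Lce3c stood at 0.487, 1.05, 2.26 and 23.2 CPM in radiated and 0.38, 0.172, 0.306 and 0.365 CPM in control libraries. Radiated replicate 4 was the highest for all 7 of these genes, and for Lce3c every radiated library lay above every control library, which was the case for 1 of 25 members tested and 3.97% of all genes. Lce3c reached the cutoff of the filter on low counts (10 counts in a library of median size) only in radiated libraries. No tested member lay below throughout, as 2.95% of all genes did. Flg measured 863, 847, 2190.2 and 6292 CPM in radiated against 1045, 1373, 897 and 693 CPM in control skin, with replicates 3 and 4 above the controls. Of 25 members tested, edgeR called 0, with 0.00577% of 17345 genes called. At an unadjusted p under 0.05, 12 were higher and 0 lower (8.54% and 5.22% of all genes), and DESeq2 called 6, all higher, where it called 4.23% of all genes (3.09% higher). With a block for the mouse 3.7% of all genes were called and still 0 members, and the log2 fold change of Rptn was 1.64 (adjusted p 0.52) in place of 5.16 (adjusted p 0.226). Without radiated replicate 4 it was 0.30 (adjusted p 0.893). Over the 24 members that reached the cutoff in both groups the median log2 fold change was 0.99.

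**Figure D2:**
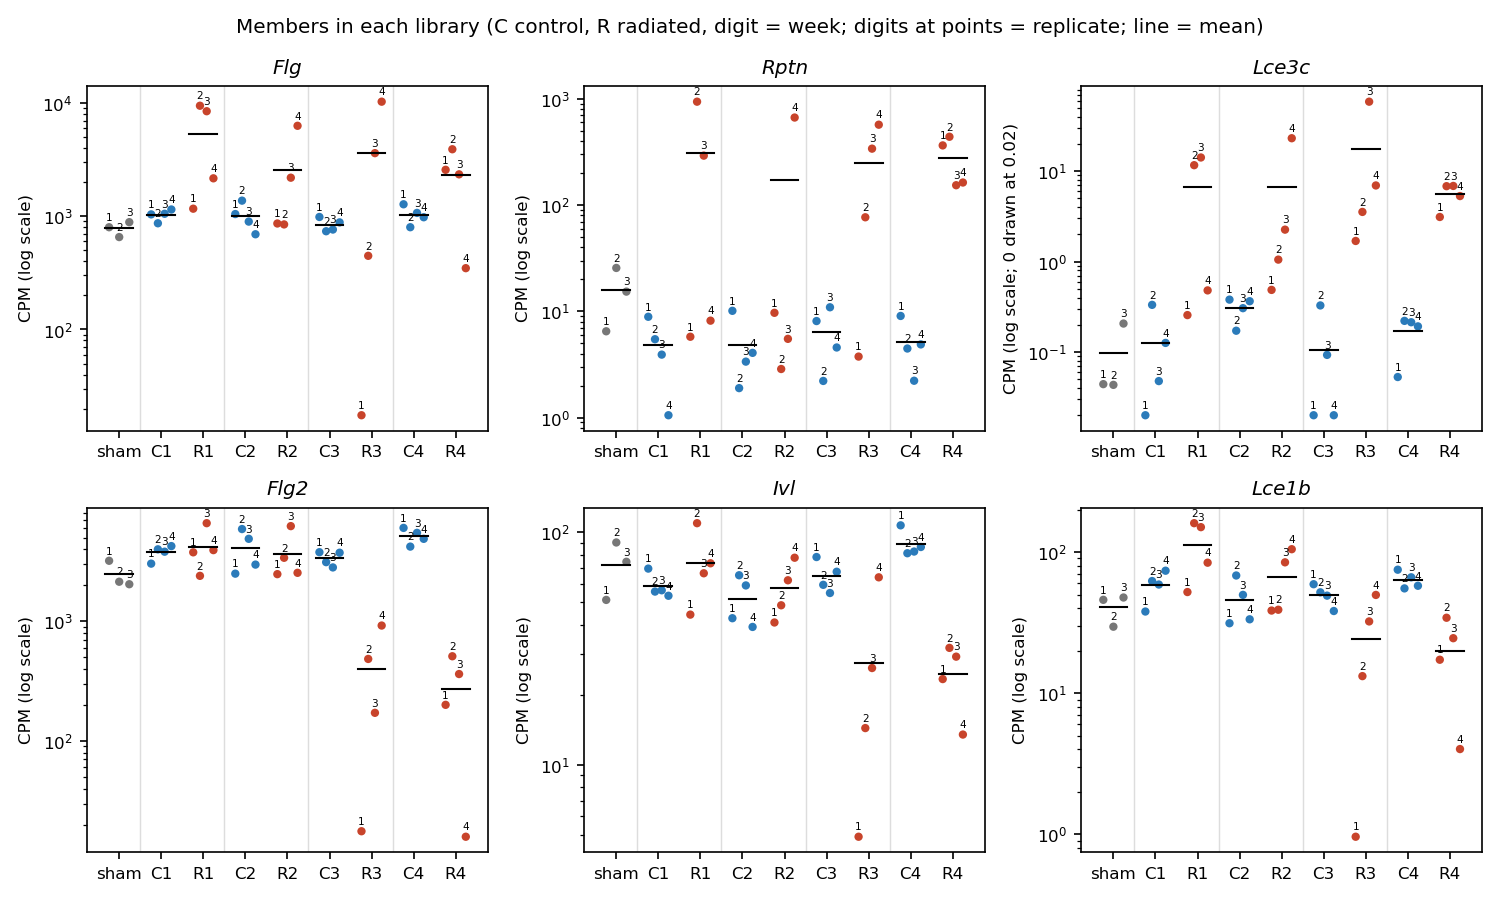
CPM on a log axis of Flg, Rptn, Lce3c, Flg2, Ivl and Lce1b in each library, by group (sham; control C and radiated R with the week); points are libraries numbered by replicate, lines are group means, and 0 is drawn at 0.02 CPM. Flg2 in radiated skin lies between 17.6 and 921 CPM in week 3 and between 15.8 and 509.9 CPM in week 4, below all control libraries.

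In week 3 the members split. Of 28 tested, 7 rose (Lce3b, Lce3c, Lce3d, Lce3f, Lce1g, Rptn and Tgm3) and 2 fell (Flg2 and Lce1m) in edgeR's test. Among 17653 genes 13.6% rose and 13.6% fell (27.2% in either direction). With libraries scaled by their total counts alone, 23% of all genes rose and 7.19% fell, their median was 0.32 on the log2 scale in place of 0.08, and 8 members rose and 2 fell. The 4 Lce3 genes entered the test through radiated skin alone, since no control library reached the cutoff of the filter on low counts, and a rise was the only call open to them. Over the 24 members that reached it in both groups, 3 rose (12.5%) and 2 fell (8.33%), where 13% of all such genes rose and 13.6% fell, so these shares were near or below the background. Groups did not overlap for 0 of the 24 above and for 3 below (12.5%), where 13.8% of all such genes lay above and 17.4% below. The median log2 fold change of the 24 was 0.67, and of all such genes 0.07. Leaving out any 1 library gave between 7 and 15 calls, the most without radiated replicate 1. That library was the lowest in the members Flg, Ivl and Rptn themselves, so the count without it is a description. Without it 15 of 30 members tested were called, 13 higher and 2 lower, against 10.9% of 17994 genes higher and 11.9% lower. The 9 members called with it were among the 15. Without that library the log2 fold change was 5.69 for Rptn (adjusted p 0.00326), 3.60 for Tgm3 (adjusted p 0.00882), 4.89 for Lce1g (adjusted p 0.00574), -2.66 for Flg2 (adjusted p 0.0083), -2.83 for Lce1m (adjusted p 0.00542) and 7.62 for Lce3c (adjusted p 0.006). With a block for the mouse, Rptn (log2 fold change 4.58, adjusted p 0.0652) and Tgm3 (2.16, adjusted p 0.125) lost their calls, where 21.1% of all genes were called.

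Among the S100 fused-type genes of week 3, Flg2 fell, Rptn rose, and Flg did not pass the test. Flg2, filaggrin-2, a relative of filaggrin in the outermost living layer, measured 17.6, 484, 172 and 921 CPM in radiated and 3774, 3116, 2815 and 3736 CPM in control skin. All radiated libraries lay far below all control libraries, the fitted log2 fold change being -3.06 ± 0.87 (SE, n = 4 per group) with an adjusted p of 0.0286 in edgeR's test. That call was lost when any of 6 libraries was left out, radiated replicates 2 and 3 and each of the 4 controls, with an adjusted p of at most 0.0656, and the fold was larger without radiated replicate 4 (-3.88, adjusted p 0.0129) and with the mouse block (-3.82, adjusted p 0.0349). Flg measured 17.5, 447, 3609 and 10277 CPM in radiated and 985, 737, 763 and 883 CPM in control skin, 2 libraries below and 2 above the controls (adjusted p 0.226, and 0.0424 without radiated replicate 1). Rptn measured 3.75, 76.9, 340.3 and 572 CPM in radiated against 8.1, 2.21, 10.9 and 4.57 CPM in control skin, so that replicates 2 to 4 were above the controls and replicate 1 was not (log2 fold change 5.29 ± 1.23, SE, adjusted p 0.0127, and 4.47 with adjusted p 0.0197 without radiated replicate 4). Hrnr, hornerin, spread from 9.1 to 838 CPM in radiated skin and was not called.

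The Lce3 genes were raised in all radiated libraries of week 3, and a rise was the only call open to those that were tested. Lce3c measured 1.69, 3.54, 58.7 and 6.95 CPM against 0, 0.328, 0.093 and 0 CPM in control skin (log2 fold change 7.24 ± 1.46, SE, adjusted p 0.0071). Replicate 3 carried much of that size: without it the fold of Lce3c was 5.11 (adjusted p 0.00658), without control replicate 2 it was 8.89 (adjusted p 0.017), and with the mouse block 6.56 (adjusted p 0.0107). Lce3b, the member with the largest fitted rise, measured 0.549, 0.606, 20.5 and 3.27 CPM, and its 4 control libraries had 0 counts. On the floor of 3 counts per library this is at least 43.8-fold higher (adjusted p 0.023), and at least 10.4-fold higher without radiated replicate 3 (adjusted p 0.0169). Replicate 3 was the highest radiated library for 6 of the 7 genes made up of Rptn and the Lce3 group, and replicate 4 for 1. Lce3a and Lce3e were too low in most libraries to be tested, although each of their radiated libraries lay above each control library. Lce3a had 2 counts in the control group and Lce3e had 1, and the ratios of counts were 108 (95% counting interval 29.7 to 900.4) and 1012 (181 to 39998). Without radiated replicate 3, which held 193 of the 231 radiated counts of Lce3a and 883 of the 1078 of Lce3e, the ratios were 25.0 (6.47 to 214) and 257 (45.6 to 10199).

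Lce1m, the Lce1 gene that lies beyond the Lce3 genes, measured 0.0457, 3.92, 2.02 and 7.78 CPM in radiated skin of week 3 and 28.6, 31, 24.2 and 47.5 CPM in control skin. No radiated library reached the control range (log2 fold change -3.24 ± 0.81, SE, adjusted p 0.017, and -4.01 with adjusted p 0.00765 without radiated replicate 4). Lce1g moved the other way, from a control mean of 0.498 CPM to a radiated mean of 11.1 CPM (log2 fold change 4.50 ± 1.07, SE, adjusted p 0.014), with radiated libraries between 0.686 and 20.8 CPM that overlapped the controls through replicate 1. With the mouse block the fold of Lce1g was 3.89 (adjusted p 0.0218). The 12 other Lce1 genes did not pass the test. Among the crosslinking enzymes, Tgm3, transglutaminase 3, measured 4.34, 13.8, 170.2 and 64.6 CPM in radiated and 7.52, 4.75, 6.55 and 9.08 CPM in control skin (log2 fold change 3.21 ± 0.93, SE, adjusted p 0.0302). Its radiated replicate 1 was below the controls, and the call was also lost without radiated replicate 3 (log2 fold change 2.00, adjusted p 0.0773) or without any single control library, with an adjusted p of at most 0.0785.

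Ivl, Lce1b and Lce6a did not pass the test in weeks 1 to 3. Ivl, involucrin, measured 44.2, 109, 66.6 and 73.6 CPM in radiated skin of week 1, 40.9, 48.5, 62.2 and 77.7 CPM in week 2 and 4.89, 14.4, 26.1 and 64 CPM in week 3. In the matching control libraries it measured 69.8, 55.6, 56.3 and 53.3 CPM, 42.7, 65.3, 59.1 and 39.1 CPM, and 78.3, 59.4, 54.8 and 67.7 CPM. The groups overlapped in every one of those weeks, in week 3 through radiated replicate 4 alone, without which the log2 fold change was -2.07 (adjusted p 0.0117) in place of -1.23 (adjusted p 0.151). Lce1b measured 52, 160.1, 150.1 and 84 CPM in radiated skin of week 1, 38.5, 39, 84.5 and 105 CPM in week 2 and 0.96, 13.2, 32.2 and 49.6 CPM in week 3. Its control libraries of those weeks lay between 31.3 and 73.7 CPM. It was above the controls of its week in replicates 2 to 4 of week 1 and replicates 3 and 4 of week 2, and below them in replicates 1 to 3 of week 3. Lce6a measured 4.27, 8.42, 3.31 and 3.23 CPM in radiated skin of week 1, 3.32, 2.86, 4.56 and 10.8 CPM in week 2 and 0.0915, 1.73, 1.26 and 4.15 CPM in week 3, with control libraries between 1.93 and 4.13 CPM. Its highest library was replicate 2 in week 1 and replicate 4 in weeks 2 and 3.

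More members passed the test in week 4 than in week 3. Of 30 members tested, 11 rose, namely Lce3a to Lce3f, Lce1g, Rptn, Tgm1, Tgm3 and Casp14. Another 9 fell, namely Flg2, Ivl, Lce6a and the Lce1 genes a1, a2, b, c, l and m. Among 17850 genes 24.2% rose and 24.2% fell (48.4% in either direction). The 6 Lce3 genes again entered the test through radiated skin alone. Over the 24 members that reached the cutoff in both groups, 5 rose (20.8%) and 9 fell (37.5%), where 23.4% of all such genes rose and 24.3% fell. Groups did not overlap for 4 of the 24 above (16.7%) and 9 below (37.5%), where 22.1% and 23.2% of all such genes did so. The median log2 fold change of the 24 was -0.098, and of all such genes 0.01. Leaving out any 1 library gave between 18 and 24 calls, where between 41.8% and 47.3% of all genes were called. With a block for the mouse, Lce1e (log2 fold change 1.02, adjusted p 0.0201) joined the calls and none was lost.

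The precursor proteins of week 4 went separate ways. Flg2 measured 200.3, 509.9, 362 and 15.8 CPM in radiated and 6023, 4203, 5473 and 4880.0 CPM in control skin, which is -4.24 ± 0.80 as a log2 fold change (SE, n = 4 per group) with an adjusted p of 0.00177. The highest radiated library was far under the lowest control, and replicate 4 was the lowest of all. Rptn measured 365, 440.5, 154 and 163 CPM against 9.05, 4.47, 2.22 and 4.88 CPM, or 5.79 ± 0.52 as a log2 fold change (SE) with an adjusted p of 2.16e-05, with every radiated library above every control. Flg measured 2570.4, 3906, 2344 and 348 CPM in radiated against 1275, 799.9, 1069.8 and 979.7 CPM in control skin. Replicates 1 to 3 were above the controls and replicate 4 was below them, and the log2 fold change of 1.16 ± 0.54 (SE) did not pass the test (adjusted p 0.101), while without replicate 4 it was 1.52 (adjusted p 0.000489). Hrnr measured 439, 600.0, 219 and 94.6 CPM against 338, 179, 209 and 184 CPM, groups that overlapped (adjusted p 0.341).

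Ivl, involucrin, an early scaffold of the envelope, measured 23.4, 31.8, 29.2 and 13.5 CPM in radiated skin of week 4 and 107, 81.3, 82.7 and 86.5 CPM in control skin. The groups did not overlap (log2 fold change -1.86 ± 0.23, SE, adjusted p 0.000152). Lce6a, the single member of its subfamily, measured 1.75, 2.75, 1.8 and 0.982 CPM against 4.92, 2.96, 3.72 and 3.15 CPM. Its groups did not overlap either (log2 fold change -1.001 ± 0.31, SE, adjusted p 0.0229), but the call was lost without radiated replicate 1 (adjusted p 0.0523), without control replicate 1 (adjusted p 0.0614) and in a fit of all 35 libraries (adjusted p 0.130). Among the enzymes, Tgm1, the membrane-bound transglutaminase of keratinocytes, measured 64.2, 80.7, 89.8 and 90.5 CPM against 51, 47.7, 54.9 and 43.4 CPM (log2 fold change 0.73 ± 0.12, SE, adjusted p 0.000818). Tgm3 measured 43.8, 55.1, 24.1 and 38.3 CPM against 14.2, 5.53, 4.87 and 3.92 CPM (log2 fold change 2.52 ± 0.41, SE, adjusted p 0.000765, and 3.11 with adjusted p 3.68e-05 without control replicate 1). Each radiated library was above each control library for both transglutaminases, although the fit of all 35 libraries lost the call of Tgm1 (adjusted p 0.0822).

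Casp14, caspase-14, a protease that takes part in filaggrin breakdown, measured 184, 196, 61.5 and 48.8 CPM in radiated and 56.5, 50.1, 47.1 and 42.3 CPM in control skin of week 4. Replicates 1 and 2 were clearly above the controls and replicate 4 lay among them. The rise passed the test (log2 fold change 1.33 ± 0.42, SE, adjusted p 0.0245), and the call was lost without radiated replicate 1 or 2 and without control replicate 2, 3 or 4, with an adjusted p of at most 0.0717, and in the fit of all 35 libraries (adjusted p 0.117). Cdsn, corneodesmosin, the adhesive protein of corneocyte junctions, measured 108, 163, 318 and 116 CPM against 230.1, 190.4, 208 and 195 CPM, groups that overlapped (log2 fold change -0.22 ± 0.30, SE, adjusted p 0.579).

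All 6 Lce3 genes rose in week 4, and their radiated libraries were closer together than in earlier weeks. They were tested through radiated skin alone, so a rise was the only call open to them. Lce3c measured 3.12, 6.83, 6.87 and 5.31 CPM against 0.0529, 0.221, 0.214 and 0.192 CPM in control skin (log2 fold change 4.95 ± 0.40, SE, adjusted p 1.15e-05). Lce3e, the member with the largest fitted rise, measured 2.43, 4.93, 4.48 and 2.14 CPM, with 0 counts in all 4 control libraries, which is at least 26.1-fold higher (adjusted p 0.000115). Lce3a and Lce3b also had 0 counts in the control libraries and were at least 12.4-fold and at least 25.5-fold higher. Lce3d and Lce3f, with 5 and 1 counts in the control group, had radiated means of 6.30 ± 3.64 and 3.47 ± 0.924 CPM (SD, n = 4). The highest radiated library differed from gene to gene, 1 gene of the 7 with Rptn peaking in replicate 1 and 2 in each of replicates 2, 3 and 4.

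**Figure D3:**
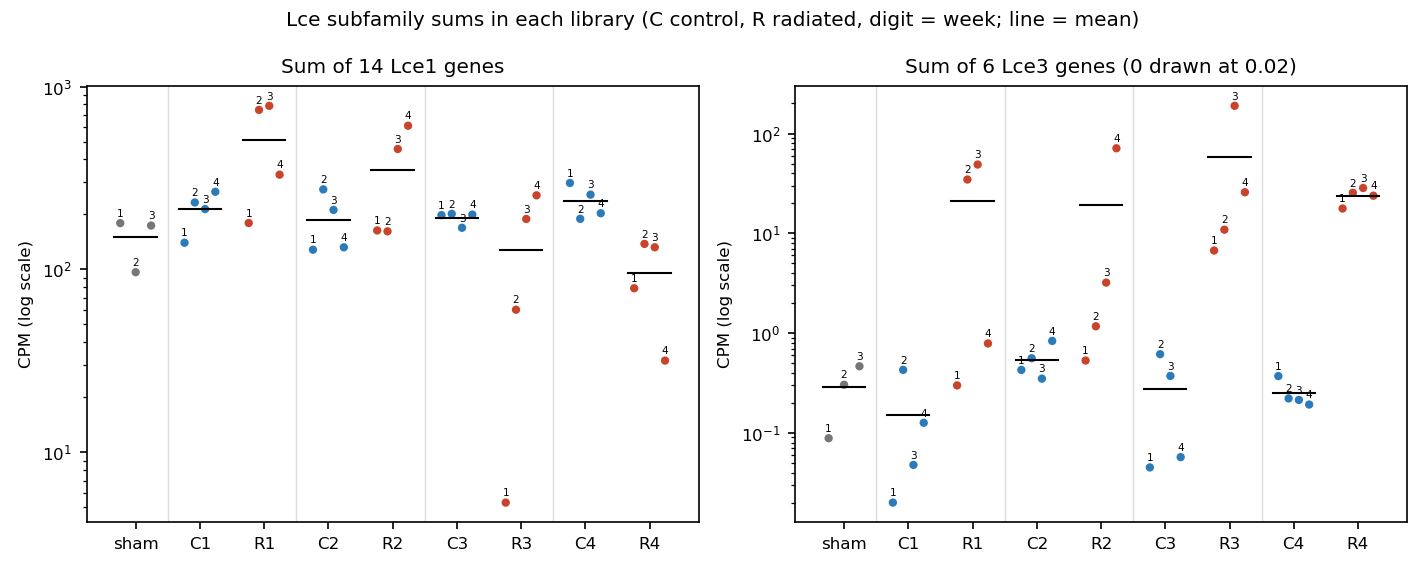
Summed CPM of the 14 Lce1 genes (left) and the 6 Lce3 genes (right) in each library on a log axis, by group; points are libraries numbered by replicate, lines are means, and 0 is drawn at 0.02. The Lce3 sum in radiated skin of week 4 lies between 17.7 and 28.5 CPM, and in control skin of that week between 0.192 and 0.370 CPM.

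The Lce1 genes divided within the subfamily. Lce1b, the Lce1 gene with the most counts, measured 17.2, 34.2, 24.5 and 4.02 CPM in radiated skin of week 4 against 74.9, 55.2, 66.2 and 57.7 CPM in control skin (log2 fold change -1.66 ± 0.47, SE, adjusted p 0.0161). Lce1m measured 0.811, 3.84, 1.93 and 0.0446 CPM against 29.5, 36.3, 38.6 and 28.5 CPM (log2 fold change -4.29 ± 0.65, SE, adjusted p 0.000458, and -5.13 with adjusted p 0.000252 without radiated replicate 2). This was the largest fall of any member in the fit without a block, while with the mouse block Flg2 fell more (-4.81 against -4.67 for Lce1m). For Lce1b and Lce1m every radiated library was under every control library and replicate 4 was the lowest. Lce1c (log2 fold change -2.20), Lce1l (-2.13), Lce1a2 (-1.83) and Lce1a1 (-1.30) fell too, the last of these losing its call in the fit of all 35 libraries (adjusted p 0.106). Lce1g was the exception, at 7.43, 12.2, 11.3 and 5 CPM in radiated against 2.43, 0.752, 0.513 and 0.346 CPM in control skin (log2 fold change 3.20 ± 0.55, SE, adjusted p 0.00104, and 4.10 with adjusted p 6.71e-05 without control replicate 1). The other 7, Lce1d, e, f, h, i, j and k, did not pass the test, with log2 fold changes from -0.28 (Lce1i) to 1.27 (Lce1k).

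Sorted by their level in control skin, the Lce1 genes fell into 3 blocks. The 6 Lce1 genes that fell were those with the highest medians over the 16 control libraries, from 17.9 CPM per kb (Lce1l) to 87.3 CPM per kb (Lce1b). The 7 that did not pass lay between 1.32 (Lce1j) and 9.65 CPM per kb (Lce1d), and Lce1g, at 0.808 CPM per kb, was the lowest of all 14. The week 4 controls are part of those 16 libraries, so this is a description and not a separate measurement. Along the chromosome, the genes that fell lay at both ends of the Lce1 row, Lce1a1, b, a2 and c at the Ivl end and Lce1l and Lce1m at the other, with the Lce3 genes that rose between Lce1l and Lce1m.

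**Figure D4:**
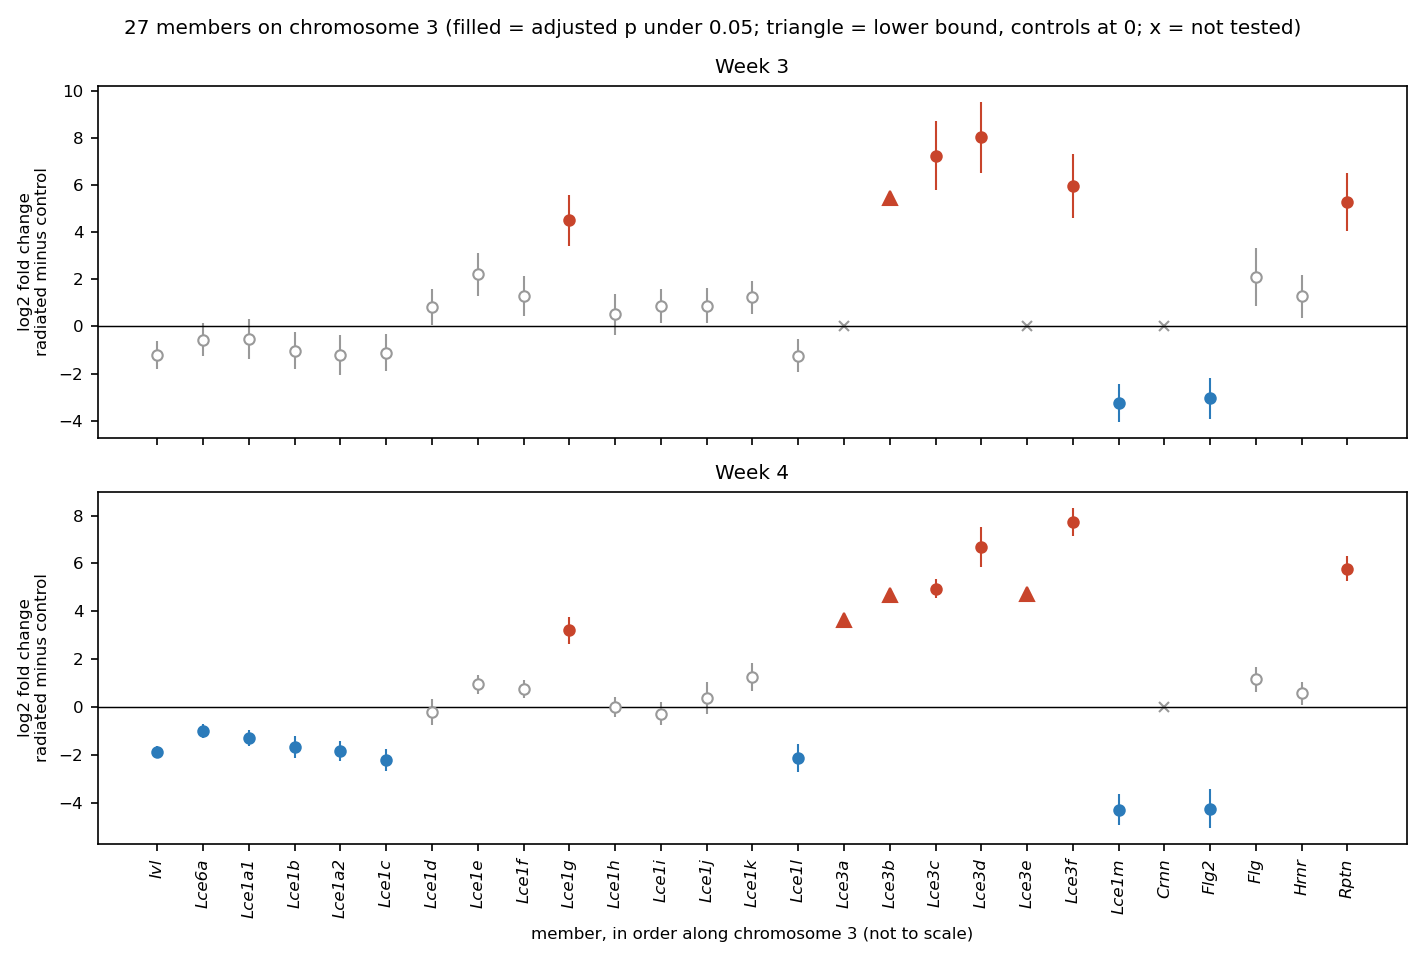
Log2 fold change of radiated against control skin in week 3 (top) and week 4 (bottom) for the 27 members on chromosome 3, in gene order and not to scale; bars are SE, filled points have an adjusted p under 0.05 (red higher, blue lower), triangles are lower bounds where all control libraries had 0 counts, and crosses were not tested. In week 4, Lce1m at -4.29 and Flg2 at -4.24 lie between the Lce3 genes that rose and Rptn at 5.79.

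Lce genes of a subfamily share sequence, so part of their estimated counts depends on how reads were divided. Of the stretches of 31 bases in the transcripts, between 41.2% (Lce1i) and 99.1% (Lce1m) were unique to 1 gene in the Lce1 group and between 39.7% (Lce3d) and 73.3% (Lce3b) in the Lce3 group. The values of single Lce1 and Lce3 genes other than Lce1m are therefore less certain than those of Flg2, Ivl or Rptn. Summing each subfamily avoids that division. The Lce1 sum was 95.2 ± 49.98 CPM in radiated and 236 ± 49.8 CPM in control skin of week 4 (SD, 4 libraries each). The sum fell, with an adjusted p of 0.0183 in edgeR's test and a log2 fold change of -1.31 ± 0.38 (SE). That call was lost without radiated replicate 1 (adjusted p 0.0513) and in the fit of all 35 libraries (adjusted p 0.0968). In week 3 the Lce1 sum spread from 5.31 to 254 CPM in radiated skin (adjusted p 0.615, and 0.777 without radiated replicate 1), and in week 1 it was 510.0 ± 302 against 213 ± 53.3 CPM (log2 fold change 1.27, adjusted p 0.251, and 1.54 with adjusted p 0.0401 without radiated replicate 1).

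The Lce3 sum was 23.9 ± 4.53 CPM in radiated and 0.249 ± 0.0817 CPM in control skin of week 4 (adjusted p 3.69e-07, log2 fold change 6.59 ± 0.25, SE). The control libraries of that week held 22 counts of the sum in all, and none reached the cutoff of the filter on low counts. The sum was tested through radiated skin alone, and a rise was the only call open to it. In week 3 it was 6.72, 10.9, 189 and 25.8 CPM against 0.0450, 0.614, 0.372 and 0.0571 CPM (log2 fold change 7.67 ± 1.36, SE, adjusted p 0.00418). Replicate 3 was far above the other 3, and without it the Lce3 sum gave 5.66 (adjusted p 0.00295), while without control replicate 2 it gave 8.47 (adjusted p 0.0132) and with the mouse block 6.96 (adjusted p 0.00715). All radiated libraries were above all control libraries in both weeks. In week 2 the sum was 0.531, 1.17, 3.21 and 71.2 CPM against 0.427, 0.559, 0.349 and 0.834 CPM (adjusted p 0.183). In week 1 it was 0.299, 34.6, 48.9 and 0.787 CPM against 0, 0.428, 0.0477 and 0.126 CPM, too low in most libraries to enter the test.

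A single model of 32 libraries, sham left out, asked whether the effect of radiation differed among the 4 weeks. It did for 5 of 31 members in edgeR's interaction test, against 15.6% of 19338 genes, a share near the background. They were Lce1m (adjusted p 0.000968), Flg2 (0.00366), Ivl (0.0178), Lce1l (0.0181) and Lce1c (0.0241). In each of them the difference of week 4 was lower than that of week 1, with changes on the log2 scale of -4.53 (Lce1m), -4.37 (Flg2), -2.17 (Ivl), -3.21 (Lce1l) and -3.25 (Lce1c). Neither Rptn nor any Lce3 gene was among them. Leaving out replicate 2 in all groups gave 2 calls, leaving out replicate 3 gave 0 and leaving out replicate 4 gave 3, where 8.46%, 4.97% and 9.2% of all genes were called. The mouse block gave the same 5 members.

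Sham skin gave a second reference, shared by all the comparisons that follow. Against its 3 libraries, 9 of 31 members rose in radiated skin of week 4 (Lce3a to Lce3f, Lce1g, Lce1k and Rptn) and 3 fell (Flg2, Ivl and Lce1m), where 15.2% of 18346 genes rose and 11.5% fell (26.7% in either direction). The Lce3 genes reached the cutoff of the filter in no sham library, and over the other 25 members 3 rose and 3 fell (12% each), where 14.2% of all genes that reached it in both groups rose and 11.5% fell. The rises of Tgm1, Tgm3 and Casp14 and the falls of Lce6a and Lce1a1, a2, b, c and l were called against control skin only. The Lce1 sum, not tested against sham, was 179, 96.6 and 174 CPM in sham skin. In radiated skin of week 4 it was 78.9, 138, 132 and 31.7 CPM, a range that overlapped sham. In sham skin Flg measured 799.5, 655 and 886 CPM, Lce1b 45.8, 29.6 and 47.6 CPM, Lce6a 3.00, 3.29 and 5.01 CPM and Lce3c 0.0442, 0.0434 and 0.207 CPM, each within or near its range in control skin. Flg2 measured 3199, 2138 and 2038 CPM, all above the radiated range of week 4 (adjusted p 0.0257, log2 fold change -3.13 ± 0.84, SE). Rptn measured 6.49, 25.6 and 15.3 CPM, all below that range (log2 fold change 4.19 ± 0.60, SE, adjusted p 0.00166). Ivl measured 51.2, 90.4 and 74.7 CPM, above it (log2 fold change -1.51 ± 0.30, SE, adjusted p 0.00689). In week 3 the 6 Lce3 genes rose and Crnn fell, 7 of 31 members, against 10.4% of 18220 genes higher and 7.75% lower (18.2% in either direction). All 6 that rose had entered the test through radiated skin alone, and of the other 25 members 0 rose and 1 fell. The count for week 3 was 1 without sham replicate 1 or 3, 0 without sham replicate 2, 4 without radiated replicate 3 and 12 without radiated replicate 1, where 10.6%, 9.63%, 6.07%, 14.3% and 12.2% of all genes were called without sham replicates 1, 3 and 2 and radiated replicates 3 and 1.

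Crnn, cornulin, was the 1 member called in radiated skin of weeks 1 and 2 against sham, lower each time, with 26 members tested. In week 1, 0.543% of 18228 genes were higher and 1.21% lower (1.75% in either direction), and in week 2, 2.16% of 18036 genes were higher and 2.9% lower (5.06%). In week 2 Crnn reached the cutoff of the filter only in sham libraries. The week 1 count was 12 without radiated replicate 1 (1.99% of all genes) and 0 without replicate 3 (0.00557%), and the week 2 count was 5 without radiated replicate 1 (7.94%) and 3 without replicate 2 (3.14%). Crnn measured 6.45, 114 and 86.6 CPM in sham skin and at most 23.5 CPM in any other library. The markers of the inner root sheath of the hair follicle (Krt25, Krt26, Krt27, Krt28, Krt71, Krt72, Krt73 and Tchh) summed to 2111, 29612 and 34709.8 CPM in the same sham libraries. Outside sham skin, Crnn was above 1 CPM in 6 libraries, control replicates 1 and 4 of week 1, control replicate 1 of week 2, control replicate 4 of week 3, radiated replicate 4 of week 3 and radiated replicate 3 of week 4, in which those markers summed to between 1096 and 7028 CPM. The part of the hair follicle in the Crnn values was not tested.

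Between control and sham skin at most 3 of 25 members were called in any week. In week 1 edgeR called 0 of 25 members, against 4.92% of 17893 genes (3.28% higher and 1.65% lower). At an unadjusted p under 0.05, 5 were higher and 2 lower (13.9% and 13.3% of all genes), and DESeq2 called 3 (16.6% of all genes). Leaving out sham replicate 1 gave 2 calls (9.84% of all genes), and leaving out control replicate 1 gave 3 (8.81%). In week 2 edgeR called 0 of 25, against 2.44% of 17855 genes (1.37% higher and 1.06% lower), with 0 higher and 2 lower at an unadjusted p under 0.05 (10.8% and 10.3%) and 2 called by DESeq2 (11% of all genes). Leaving out sham replicate 1 gave 1 call (5.51% of all genes), and leaving out control replicate 1 gave 2 (12.5%). In week 3, Lce1c was higher (adjusted p 0.0485) and Casp14 (0.0427) and Tgm3 (0.0465) were lower, 3 of 25 members against 11.4% of 17907 genes (5.18% higher and 6.19% lower).

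In week 4, Flg2 (log2 fold change 1.06 ± 0.21, SE, adjusted p 0.0366) and Lce1c (0.91 ± 0.20, SE, adjusted p 0.0499) were higher in control than in sham skin and Crnn was lower (adjusted p 0.0109), 3 of 25 members against 3.65% of 17925 genes (1.76% higher and 1.9% lower). Crnn reached the cutoff of the filter only in sham libraries, so a fall was the only call open to it, and of the other 24 members 2 were higher and 0 lower (8.33% and 0%). Of all genes that reached the cutoff in both groups, 1.75% were higher and 1.33% lower. The week 3 count was 0 without sham replicate 2 or 3 (3.87% and 3.46% of all genes) or without control replicate 1, 2 or 3 (5.35%, 4.48% and 4.18%), and 1 without control replicate 4 (7.58%). The week 4 count was 6 without sham replicate 1 (9.26% of all genes), 1 without sham replicate 2 or 3 or without control replicate 1 (1.54%, 0.889% and 1.76%), and 0 without control replicate 2, 3 or 4 (0.00562%, 0.0113% and 0%). Flg2 in control skin of week 4, at 4203 to 6023 CPM, was above its 3 sham libraries.

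Genes that act beside the members were followed in lists by role, and their counts in week 4 stand against 24.2% of all genes that rose and 24.2% that fell. Of 16 genes for envelope and suprabasal structure, 1 rose and 11 fell in week 4, with a median log2 fold change of -1.37 (0.02 over all genes). Krt77, a suprabasal keratin, fell most, from 9489 ± 726 to 386 ± 338 CPM (SD, n = 4, log2 fold change -4.62, adjusted p 0.000476), and Cnfn, cornifelin, an envelope protein, was the one that rose (1.01, adjusted p 0.00297). Lor, loricrin, the bulk protein of the envelope, fell (-2.26, adjusted p 0.00338), as did Krt10, the keratin that filaggrin packs (-2.59, adjusted p 0.0038), whereas its partner Krt1 did not pass (0.53, adjusted p 0.392). Of 11 genes for filaggrin and junction processing, 4 rose and 3 fell (median -0.44). Padi1, one of those that rose, entered the test through radiated skin alone, and of the other 10 genes 3 rose and 3 fell (30% each). Spink5, an inhibitor of the kallikreins that open corneocyte junctions, fell most (-1.43, adjusted p 2.66e-05), Klk5 fell too (-0.79, adjusted p 0.00858), and Blmh, bleomycin hydrolase, which breaks filaggrin down, rose (0.68, adjusted p 0.00494). Asprv1, the protease that cuts profilaggrin, did not pass (-0.44, adjusted p 0.145).

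Padi1 and Padi3, which convert arginine in filaggrin and trichohyalin to citrulline, were also among those that rose (log2 fold changes 5.52 and 6.13, adjusted p 0.00878 and 0.00647). Padi3 measured 4.23, 1.09, 57.0 and 3.03 CPM in radiated and at most 0.50 CPM in control libraries, and 13.4, 209 and 239 CPM in sham skin. Its highest radiated library, replicate 3, was also the one in which the inner root sheath markers summed to 5973 CPM, where the other 3 had between 20.6 and 261 CPM. In that week 6 of 8 inner root sheath markers were tested and all 6 were higher in radiated skin. Tgm3, which hair follicles also express, measured 24.1 CPM in replicate 3 and 55.1 CPM in replicate 2, whose marker sum was 20.6 CPM. The part of the hair follicle in the values of Padi3 and Tgm3 was not tested.

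Of 15 barrier lipid genes, 2 rose and 9 fell in week 4 (median log2 fold change -0.60). Acer1, an alkaline ceramidase, fell most (-1.69, adjusted p 0.000392), and Sult2b1, the cholesterol sulfotransferase, rose most (0.83, adjusted p 0.0404). Of 18 regulators of late differentiation, 4 rose and 9 fell (median -0.61), and Gata3 fell most, from 1157 ± 102 to 149 ± 72.1 CPM (SD, n = 4, log2 fold change -2.95, adjusted p 7.38e-05). It encodes a transcription factor of the upper epidermis that other cell types also use. Among the small proline-rich genes, envelope precursors like the Lce genes, 14 of 15 tested rose and 0 fell, Sprr2a1 being at least 60.5-fold higher with 0 counts in its control libraries. Of those 15, 11 entered the test through radiated skin alone, and 3 of the other 4 rose. In week 3, when 13.6% of all genes rose and 13.6% fell, the counts were 11 of 13 higher (5 of the 7 that reached the cutoff in both groups) and 0 lower for this group, and 0 higher and 6 of 16 lower for the structural genes.

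Other cell types moved in the same weeks. The suprabasal keratinocyte markers Krt1, Krt10, Krtdap and Dsc1 summed to 2607, 4184, 2954 and 667 CPM in radiated replicates 1 to 4 of week 4 and to between 9408 and 10584 CPM in control skin. In week 3 they summed to 185, 1846, 2499 and 9289.9 CPM in radiated and to between 5729 and 7988 CPM in control skin. The library with the lowest sum was replicate 1 in week 3 and replicate 4 in week 4, the same libraries in which Flg2 and Lce1m were lowest. Basal keratinocyte markers in week 4 summed to between 11041 and 13736 CPM in radiated and between 14077 and 17498 CPM in control skin. Fibroblast markers (Col1a1, Col1a2, Col3a1, Pdgfra, Dcn and Lum) were higher in 6 of 6 cases, with sums of 27905 to 47082 CPM in radiated and 2207 to 4635 CPM in control skin. Leukocyte markers were higher in 5 of 6 cases and lower in 1 (766 to 1249 against 149.6 to 181 CPM), and skeletal muscle markers were lower in 5 of 6 (885 to 2097 against 1173 to 17899 CPM). Muscle sums were already apart in week 1 (6996 to 20239.5 against 23226 to 36756 CPM) and week 2 (8523 to 17662 against 25281 to 45270 CPM). In both of these weeks 0 of 6 muscle markers were called, and the sums in sham skin were 6042 to 12960 CPM. No marker in these lists was at 0 in every library of a group. The part of these shifts in the falls and rises of the members was not tested.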

How the data were processed

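RNA of 35 skin biopsies was sequenced. Values were deposited as estimated counts, 1 per gene and library. Per the submitters' processing notes, the authors used Trim Galore 0.6.7, kallisto 0.46.2 and the mm10 build, and the labels' protocols also name DESeq2. The transcriptome release and the step from transcripts to genes are not given in the sources used here. Between 29.5% and 32.5% of the values of a library were not whole, and they were rounded. All 36106 genes were fitted with edgeR 4.0.16 (R 4.3.3, limma 3.58.1), using filterByExpr, TMM scaling and the quasi-likelihood F test, with Benjamini-Hochberg adjustment over all genes tested and a threshold of 0.05. Each comparison used its own 2 groups without a block. The change over weeks was an interaction F test in 32 libraries. A gene was tested only where it passed the filter on low counts.

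CPM are counts per 1e6 with TMM factors, and SE is the size of the log2 fold change divided by the square root of F. Fold bounds and counting intervals (95%) cover counting error only, since reads carried no molecular identifiers. No pair of libraries among 51 pairs within groups was identical, and the lowest reduced chi-square of such a pair was 21.2, so each library was counted as 1 sample.

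The members and lists were chosen with earlier results of these data known. Every member may be named, with the value in every library for Flg, Ivl, Rptn, the Lce gene of each subfamily with the most counts, and the largest rise and fall of each week. Of each other list, the genes with the largest rise and fall of week 4 (at a mean of at least 1 CPM) and those that process or crosslink a member were named. One such gene is not reported here.

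The pairing of radiated and control samples comes from the sample numbers and the number of mice. Over 19813 genes, deviations from the group mean correlated between same-numbered samples by a mean r of 0.071, 0.173, 0.053 and -0.020 for weeks 1 to 4. The alternatives were RLE and total-count scaling, no filter on low counts, DESeq2 1.42.0, 1 fit of all libraries, the replicate block and leaving out each replicate. Transcripts for the 31-base stretches and gene positions were those of GENCODE M21, and promoters those of RefSeq.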

Additional observations from a re-analysis of the deposited data

Results flagged for a closer look

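In groups of 4, a library was looked for that stood far from the other 3 of its group, given the range of the group. Over 12 members with 86 such groups, 9 values stood apart, all of them in 4 libraries. Chance gives about 1 in 20 groups, but members measured in 1 library are not independent, so the 9 cannot be set against that rate. Radiated replicate 4 of week 2 stood apart for Rptn (668 CPM), Lce3c (23.2 CPM), Lce3b (2.45 CPM), Lce3e (14.6 CPM) and Tgm3 (79.3 CPM). Radiated replicate 3 of week 3 stood apart for Lce3c (58.7 CPM) and Lce3b (20.5 CPM). Tgm3 also stood apart in control replicate 1 of week 1 (19.6 CPM) and control replicate 1 of week 4 (14.2 CPM), whose inner root sheath markers summed to 7028 and 33.7 CPM.

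By the interaction test, the effect of radiation differed among weeks for Lce1m (adjusted p 0.000968), Flg2 (adjusted p 0.00366), Ivl (adjusted p 0.0178), Lce1l (adjusted p 0.0181) and Lce1c (adjusted p 0.0241). In week 1 the fitted differences of these 5 were above 0, and by week 4 they were below 0. These are 5 of 31 members where 15.6% of all genes passed, and leaving out replicate 3 in all groups gave 0 members.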

How the results depend on the processing

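Of the counts of members called, 117 alternative values stayed within 1.5 times the reported count and 52 did not. The family sums kept their direction and call in 92 alternative values, gained a call in 3 and lost it in 2. Single members kept direction and call in 516, gained a call in 8, lost it in 24 and reversed in 1, Ivl in week 2, whose log2 fold change of 0.15 became -0.043 without radiated replicate 4 (and at most 0.29 without another). For each change the cause was not tested. DESeq2 called 8 members in week 1 and 6 in week 2 for radiated against control skin (2.41% and 4.23% of all genes), 15 and 8 for radiated weeks 1 and 2 against sham (6.79% and 13.8%), and 3, 2 and 6 for control weeks 1, 2 and 4 against sham (16.6%, 11% and 10.3%). Without the filter on low counts the members called against sham were 8 and 4 for radiated weeks 1 and 2 (2.23% and 4.68% of all genes) and 1 each for control weeks 1 and 2 (4.61% and 2.98%). One fit of all 35 libraries called 2 in week 2 and 14 in week 3 (11 higher, 3 lower; 2.75% and 33.9% of all genes), 6 and 8 for radiated weeks 1 and 2 against sham (6.18% and 16.4%), and 0 and 1 for control weeks 3 and 4 against sham (11.5% and 3.01%). Scaling by total counts moved the share of all genes that rose and fell against sham from 2.16% and 2.9% to 1.54% and 3.81% for radiated week 2, from 3.28% and 1.65% to 2.02% and 2.62% for control week 1, from 1.37% and 1.06% to 1.11% and 1.8% for control week 2 and from 5.18% and 6.19% to 3.19% and 10.9% for control week 3. The Lce1 sum of week 1 was called by DESeq2 (1.25, adjusted p 0.0472), the Lce3 sum of week 2 in the fit of all libraries (5.13, adjusted p 0.0401), and the Lce1 sum of week 4 was lost there (-1.31, adjusted p 0.0968). The Lce3 sum of week 1 was not tested, as it did not pass the filter.

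Leaving out 1 replicate gave 0 to 12 calls in week 1 (0% to 1.3% of all genes), 0 to 0 in week 2 (0% to 1.16%), 7 to 15 in week 3 (17.9% to 28.3%) and 18 to 24 in week 4 (41.8% to 47.3%) for radiated against control skin. Against sham it gave 0 to 12 (0.00557% to 2.88% of all genes), 1 to 5 (0.583% to 7.94%), 0 to 12 (6.07% to 22%) and 11 to 16 (19.1% to 24.5%) for radiated skin and 0 to 3 (0% to 9.84%), 0 to 2 (0% to 12.5%), 0 to 4 (3.46% to 13.3%) and 0 to 6 (0% to 9.26%) for control skin. The change over weeks was called for 0 to 5 members (4.97% to 9.2%). The Lce1 sum ran from 0.98 to 1.54 in week 1 and from -1.54 to -1.02 in week 4, and the Lce3 sum from 5.66 to 8.47 in week 3.

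With the replicate block the calls were 7 in week 3, without Rptn and Tgm3, and 21 in week 4, with Lce1e added, and the interaction gave the same 5 members. No other call between radiated and control skin changed. Sham and treated samples share only a number, and there the block gave 2, 3, 8 and 14 calls for radiated weeks 1 to 4 (0.691%, 2.76%, 16.5% and 17.2% of all genes) and 1 each for control weeks 3 and 4 (2.66% and 0.541%). The call of control week 3 was Crnn, and Lce1c, Casp14 and Tgm3 lost theirs. Most Lce3 values of control skin are under 3 counts, so that fitted folds of these genes are imprecise.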

Other observations

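Skin appendages, which the account of the epidermal genes leaves aside, differed between libraries too. Hair shaft keratins (Krt31, Krt33a, Krt34, Krt35, Krt81 and Krt86) summed to between 197.6 and 2683 CPM in sham skin and to between 1.06 and 1.495 CPM in control skin of week 4, where all 6 were lower than in sham skin. Sebocyte markers (Scd3, Mc5r, Awat2, Fa2h and Elovl3) fell for 3 of 5 genes in radiated skin of week 4 against control skin, with sums of 65.5 to 237 CPM against 264 to 661 CPM. Adipocyte markers (Adipoq, Plin1, Cidec, Lep and Fabp4) gave 0 calls of 5 in that week, with sums of 336 to 408 CPM in radiated and 221 to 783 CPM in control skin.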
